A study of Mus musculus with 7 samples.

Results

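Proteasome subunit genes were followed through the neutrophils of 6 healthy libraries and 5 conditions of 1 inflammation library. The genes were those whose symbol starts with Psma, Psmb, Psmc, Psmd or Psme, pseudogene symbols left out, and that were listed in all 7 count files. This gave 42 genes of the 45 symbols found in any file and of 28719 symbols in all. The 3 others, Psma8, Psmb11 and Psmc3ip, held 1, 5 and 41 unique molecular identifiers (UMIs) over all selected cells. By family there were 7 Psma, 10 Psmb, 6 Psmc, 14 Psmd and 5 Psme genes.

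All mice were male C57BL/6J, and each library or condition pooled 3 of them. Neutrophils, sorted as CD11b+ Ly6G+ and negative for propidium iodide, were profiled by 10X 3' single-cell RNA-seq. Healthy blood, bone marrow and spleen were each profiled in 2 runs, with mice aged 6 weeks in run 1 and 8 weeks in run 2. Within a run, the same mice gave all 3 tissues. The inflammation library held 5 hashtagged conditions from mice aged 8 weeks. They were blood of untreated mice, blood and joint lavage at day 7 of arthritis induced by 150 µl of K/BxN serum given intraperitoneally at days 0 and 2, lung lavage 3 h after intranasal IL-1β (25 ng), and peritoneal lavage 3 h after intraperitoneal IL-1β (25 ng). These names are shortened here to healthy blood of the inflammation library, K/BxN blood, K/BxN joint, IL-1β lung and IL-1β peritoneum. The study's methods give an earlier 3' chemistry for the healthy libraries than for the inflammation library and a different Cell Ranger version for each healthy run and the inflammation library, while the labels name several chemistries without assigning them. The part of these differences in any contrast across runs or libraries was not tested. No genotype other than the wild-type strain is given for any group.

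The healthy part comprised 12755 of 16907 deposited cells, those with at least 3% of their UMIs from S100a8 and S100a9 together, and the inflamed part 4852 of 4856 cells, those with an ImmGen neutrophil label. Selected cells per library or condition numbered 292 to 3672, with a median depth of 775 to 2698.5 UMIs per cell in healthy and 2527 to 3681 in inflamed samples. All 15 neutrophil markers were detected in every library and condition. Markers of other cells were present in places: erythroid genes reached 30378 CPM (UMIs per 1000000 UMIs of the selected cells) in blood of run 2, against 252 to 913 in the other healthy libraries, and B cell genes 807 in spleen of run 2, against 3.77 to 303. Between 0 and 36 cell barcodes were shared by any pair of libraries. The run 1 files list only genes with at least 11 UMIs, so a gene missing there was entered as 0.

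The proteasome degrades proteins tagged with ubiquitin. Its core is built of alpha rings (Psma) and beta rings (Psmb), and a regulatory particle of ATPases (Psmc) and non-ATPase subunits (Psmd) binds, unfolds and feeds in the substrate. The catalytic beta subunits are Psmb5, Psmb6 and Psmb7. In immune cells and under interferon they can be replaced by Psmb8, Psmb9 and Psmb10, respectively, which gives the immunoproteasome, known for making peptides suited to MHC class I. Psme1 and Psme2 form an activator cap that is also interferon-inducible, Psme3 forms a nuclear activator, and Psme4 is a single-chain activator.

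The sequences before the RefSeq starts of the 3 immunoproteasome genes are shown because the share of these genes among the catalytic subunits is followed throughout. Psmb8 (chr17:34197721-34201454, + strand) and Psmb9 (chr17:34181987-34187764, - strand) lie close together in the MHC region, and Psmb10 lies at chr8:105935735-105938444 on the - strand (GENCODE gene spans, GRCm38). The 250 bases before the RefSeq transcript start (GRCm38.p6) are at chr17:34197945-34198194 for Psmb8, chr17:34187331-34187580 for Psmb9 and chr8:105938393-105938642 for Psmb10, each read 5' to 3' on the gene's strand, with a match to the gamma-activated sequence, the GAS motif (TTCNNNGAA), in capitals. The windows of Psmb8 and Psmb9 lie wholly inside the GENCODE gene spans, which start further upstream than the RefSeq transcripts.
Psmb8: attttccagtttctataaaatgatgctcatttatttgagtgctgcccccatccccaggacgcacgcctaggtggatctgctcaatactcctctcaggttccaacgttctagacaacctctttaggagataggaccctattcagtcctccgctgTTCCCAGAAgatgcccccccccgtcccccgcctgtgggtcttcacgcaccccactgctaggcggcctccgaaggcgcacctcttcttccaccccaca
Psmb9: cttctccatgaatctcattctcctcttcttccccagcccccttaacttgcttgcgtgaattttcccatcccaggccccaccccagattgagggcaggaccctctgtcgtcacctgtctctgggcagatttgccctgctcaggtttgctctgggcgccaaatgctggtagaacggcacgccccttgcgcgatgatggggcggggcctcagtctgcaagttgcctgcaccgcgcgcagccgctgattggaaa
Psmb10: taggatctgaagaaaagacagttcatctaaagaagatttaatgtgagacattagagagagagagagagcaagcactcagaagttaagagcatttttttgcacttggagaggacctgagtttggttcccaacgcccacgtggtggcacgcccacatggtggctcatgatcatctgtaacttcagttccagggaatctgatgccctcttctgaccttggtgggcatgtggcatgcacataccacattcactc
The GAS letters were searched on both strands from 250 bases before to 50 after the start, and 2726 of 32851 RefSeq promoter windows (8.30%) hold them. Of 36 members matched in the promoter table, Psmb8 and Psmd2 hold them. A shortened interferon response element (GAAANNGAA, both strands) was found in 2812 windows (8.56%) and in 6 of the 36 members, Psmb3, Psmb4, Psmc2, Psmd4, Psmd9 and Psme1. The Psmb9 window contains the start of Tap1, the peptide transporter gene on the other strand, and the Psmb9 and Tap1 gene spans overlap. A match is a description of these letters, not of binding.

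The first question was how large the proteasome's part of the neutrophil transcriptome was and how it was divided. In run 1 the 42 genes held 0.277% of blood, 0.307% of bone marrow and 0.279% of spleen UMIs. In run 2 they held 0.289%, 0.271% and 0.310%. The 3 tissues overlapped, and the runs differed by as much as the tissues. This depended on the total used: without granule and S100 genes in it the 42 genes held 0.384% and 0.354% in blood, 0.499% and 0.386% in spleen and 0.572% and 0.475% in bone marrow (runs 1 and 2), so blood lay below bone marrow. The difference of blood from bone marrow was 0.0309 percentage points as a mean over cells, against -0.00605 in the summed cells. Each 3' tag stands for 1 molecule, so levels were not divided by transcript length. Within the alpha ring, Psma7 was the most abundant at a mean of 180.3 CPM over the 6 healthy libraries (145.8 to 200.7), and Psma5 the least at 34.6 (29.9 to 43.6). Among the beta subunits Psmb3, a structural subunit, had a mean of 222 (202.5 to 243) and Psmb8 one of 213 (121 to 284), while Psmb10 was lowest at 28.4 (20.5 to 41.4). Among the ATPases the range of means ran from 22.7 for Psmc5 to 47.5 for Psmc3. Among the non-ATPase subunits, the ubiquitin receptor Psmd4 was highest at 101.7 and Psmd3 lowest at 9.23. Psmb8 was above Psmb3 in both blood libraries and in spleen of run 2, and below it in both bone marrow libraries and in spleen of run 1.

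Psma3, an alpha subunit, and Psme2b, a copy of Psme2 without introns, differed by run at least 2-fold in all 3 tissues, and no other member did. Psma3 held 17.2 to 43.4 CPM in run 1 and 83.1 to 120.4 in run 2. Psme2b moved the other way, from 83.8 to 92.6 in run 1 to 12.3 to 32.2 in run 2. Both are treated as uncertain. Psme2b (chr11:48945354-48946190, - strand) overlaps 2 other genes on the same strand and closely resembles Psme2, so reads could be split between copies.

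The immunoproteasome's part was larger in blood than in bone marrow in both runs. Of all UMIs from the 6 catalytic subunits, those of Psmb8, Psmb9 and Psmb10 made up 70.6% in blood of run 1 and 68.9% in blood of run 2. The values were 58.2% and 68.0% for spleen and 49.1% and 47.3% for bone marrow. The means were 69.7% ± 1.23 in blood, 63.1% ± 6.89 in spleen and 48.2% ± 1.33 in bone marrow (SD, n = 2). Blood and spleen libraries lay above both bone marrow libraries, and the 2 spleen libraries lay far apart. No p-value is given for this share.

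**Figure D1:**
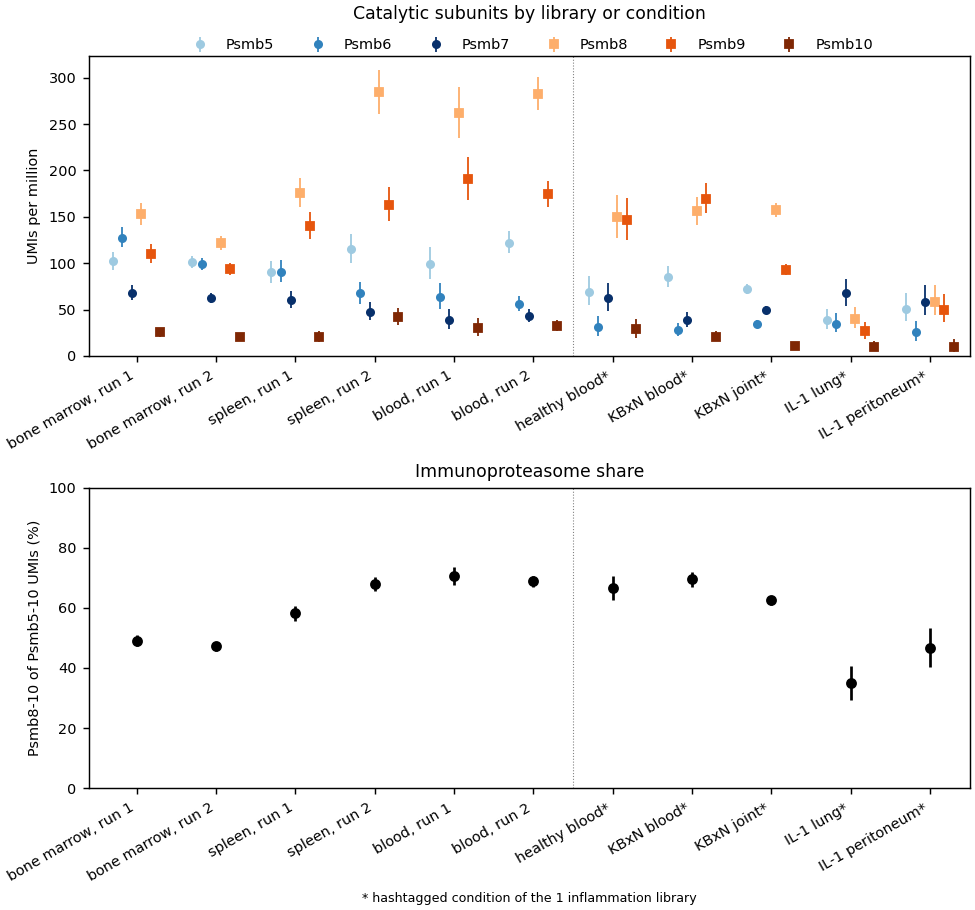
Levels of the 6 catalytic subunits in CPM (top) and the share of Psmb8 to Psmb10 among them in percent (bottom) for each library or condition. Points are single libraries or conditions, bars are exact 95% intervals (Poisson at the top, binomial at the bottom) for counting error only, the dotted line separates the healthy libraries from the inflammation library, and the share is lowest, at 35.0%, in IL-1β lung.

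Each replacement pair showed the difference between blood and bone marrow. Psmb9 took 75.1% and 75.7% of the UMIs of the Psmb9 and Psmb6 pair in blood, against 46.3% and 48.5% in bone marrow. Psmb8 took 72.5% and 69.9% of its pair with Psmb5 in blood and 59.9% and 54.5% in bone marrow. Psmb10 took 44.1% and 42.8% of its pair with Psmb7 in blood and 27.0% and 24.8% in bone marrow. In spleen the Psmb10 share was 25.3% in run 1 and 46.6% in run 2, so it lay near bone marrow in the first run and near blood in the second.

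The levels behind these shares were compared next. Psmb8, which carries the chymotrypsin-like activity of the immunoproteasome, held 262 and 283 CPM in blood (runs 1 and 2). Spleen held 176 and 284 and bone marrow 153 and 121. Psmb9 was at 190.4 and 175 in blood, at 140 and 163 in spleen, and at 110 and 93.3 in bone marrow. Psmb6, the subunit that Psmb9 replaces, held 63.2 and 56.0 in blood, 90.8 and 67.5 in spleen and 127.6 and 98.97 in bone marrow. Blood and bone marrow did not overlap for any of these genes. Psmb7 held 38.2 and 43.4 in blood and 68.3 and 62.3 in bone marrow. Psmb5 overlapped, with 99.3 and 122 in blood and 102 and 101 in bone marrow.

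The tissues were then tested by edgeR's quasi-likelihood test on UMIs summed per library, with the run as a block and Benjamini-Hochberg adjustment over all 7809 genes tested (FDR). Blood against bone marrow called 9 of 42 members lower and 0 higher, a share of 21.4% lower where 9.94% of all genes were called lower and 11.7% higher (21.7% in either direction). DESeq2 called 4 lower and 0 higher, where it called 6.75% and 8.37% of all genes. In edgeR 22 members (52.4%) had an unadjusted p under 0.05, as did 36.4% of all genes. The median log2 fold change was -0.61 over the members and -0.02 over all genes. By family, 2 of 7 Psma, 1 of 7 of Psmb1 to Psmb7, 2 of 6 Psmc, 4 of 14 Psmd and 0 of 5 Psme genes fell. All 6 ATPases had estimates below 0 and all 3 immunoproteasome genes above 0. These fold changes are relative to totals scaled by TMM, which sets the median of all genes near 0. With library totals alone, an alternative added after seeing the data, the median was -0.33 over the members and 0.26 over all genes, and 2 members were called lower, Psmd14 and Psmd6, and 0 higher (6.13% and 12.6% of all genes).

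The most strongly lowered member was Psmd14, the deubiquitinase of the regulatory particle that removes ubiquitin chains before degradation. It held 11.8 and 10.6 CPM in blood, 29.4 and 26.1 in spleen and 44.5 in both bone marrow libraries. Its log2 fold change was -2.28 ± 0.28 (SE, FDR 0.0040, edgeR). Psmd6, another lid subunit, followed with -1.5 (FDR 0.0078, edgeR), from 40.0 and 32.3 in bone marrow to 16.9 and 14.1 in blood. Psmb6 fell by 1.19 (FDR 0.017, edgeR). The scaffold subunit Psmd1 changed by -1.12 and its partner Psmd2 by -0.90. The ATPases Psmc1 and Psmc4 changed by -0.82 and -0.81, and the alpha subunits Psma2 and Psma6 by -0.85 and -0.78. The FDR of these last 6 genes lay between 0.039 and 0.0498 in edgeR. Spleen lay between blood and bone marrow for Psmd14 and Psmd6 in both runs.

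In the main fit the immunoproteasome genes did not pass the test between tissues. Some alternative settings for blood against bone marrow called Psmb8 and Psmb9, and also Psmb7. Psmb8 had a log2 fold change of 0.71 ± 0.22 (FDR 0.060, edgeR), Psmb9 of 0.56 ± 0.20 (FDR 0.081, edgeR) and Psmb10 of 0.17 ± 0.27 (FDR 0.68, edgeR). Psmb7 had -0.94 (FDR 0.055, edgeR) and Psmb5 -0.16 (FDR 0.62, edgeR). The Psmb5 estimate had the opposite sign with library totals, at 0.11 (FDR 0.81, edgeR), as did that of Psmb1, at 0.0040 against -0.27. The activators had values of -0.01 for Psme1, -0.22 for Psme2, 0.47 for Psme2b, -0.62 for Psme3 and -0.07 for Psme4, with an FDR of at least 0.117 in edgeR. With library totals the estimates of Psme1, Psme2 and Psme4 lay above 0. Among the genes of class I peptide loading, by contrast, 7 of 12 tested rose in blood, where 11.7% of all genes did, among them Tap1 (0.90) and the class I heavy chain H2-K1 (1.35), and 0 fell. Of 22 tested genes of assembly and regulation, Usp14, a deubiquitinase that docks on the proteasome, fell by 2.12 (FDR 0.036, edgeR; 0.093 with library totals) and the rest were not called. Of the 5 ubiquitin genes, Rps27a differed greatly by run, with 13.9 to 42.6 CPM in run 1 and 1258 to 1979 in run 2, and is treated as uncertain. The 5 all had estimates above 0 without passing the test, and with library totals Ubb passed it (1.04, FDR 0.045, edgeR).

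The count of 9 depended on single libraries: it was lower without either blood library and also without bone marrow of run 2. It was 0 without blood of run 1 and 0 without blood of run 2, the library with the high erythroid level, where 0.655% and 0% of all genes were called. It was 20 and 21 without a spleen library of run 1 or run 2 (30.0% and 28.6% of all genes), and 1 without the run as a block (2.1% of all genes). Other measures differed between these tissues as well: the 4 granule genes Camp, Ngp, Ltf and Lcn2 held 2.61% and 0.435% of UMIs in blood and 10.3% and 7.44% in bone marrow. The summed level of 10 cell cycle markers was 89.7 and 33.9 CPM in blood, with 2 and 0 of them at 0, and 575 and 653 in bone marrow, with 0 at 0. That of 9 monocyte or macrophage markers was 637 and 267 in blood and 1385 and 1015 in bone marrow. In cells of the low granule range 3 members were called lower, where 5.33% of all genes were. In cells without a UMI of a cell cycle marker 3 were (5.84% of all genes), and in cells without a UMI of any other cell type's marker 5 of 39 were (8.32% of all genes).

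Spleen against bone marrow called 0 of 42 members by edgeR (2.24% of all genes higher and 0.512% lower, 2.75% in all) and 0 by DESeq2, with 6 members (14.3%) at an unadjusted p under 0.05 in edgeR, where 16.8% of all genes were. Spleen against blood called 0 members by edgeR (0% of all genes higher and 0.0512% lower) and 0 by DESeq2, with 4 members (9.52%) at an unadjusted p under 0.05 in edgeR, where 10.3% of all genes were. The estimates for Psmb8 were 0.55 ± 0.22 (FDR 0.27, edgeR) in spleen over bone marrow and -0.16 ± 0.22 (FDR 0.82, edgeR) in spleen over blood. The other catalytic subunits lay between -0.67 (Psmb6) and 0.42 (Psmb9) in spleen over bone marrow and between -0.15 (Psmb9) and 0.52 (Psmb6) in spleen over blood. The activators lay between -0.13 (Psme3) and 0.35 (Psme2b) and between -0.12 (Psme2b) and 0.49 (Psme3).

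The second question was how the proteasome genes followed maturation inside each library. Cells were split by the summed share of Camp, Ngp, Ltf and Lcn2, secondary granule genes of immature neutrophils, into a high range (at least 5% of UMIs) and a low range (below 1%). These are ranges of a continuous share and not cell types: 399 healthy cells lay between 4% and 6%, and 543 between 0.8% and 1.2%. High-range cells made up 52.9% and 34.0% of bone marrow, 40.6% and 2.94% of spleen and 9.57% and 0.654% of blood (runs 1 and 2). They were deeper, with a median of 2309 to 4017 UMIs against 766 to 1641 in the low range.

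In the high range 18 of 42 members rose and 3 fell (edgeR with the library as a block, 5361 genes tested, of which 21.3% were called higher and 25.2% lower, 46.5% in all). The shares among the members were 42.9% and 7.14%, and the median log2 fold change was 0.46 over the members and -0.02 over all genes. These counts hold with TMM scaling. With library totals alone 7 members were called higher and 4 lower (12.6% and 36.3% of all genes), with medians of 0.10 and -0.36. The 7 were Psmb6, Psmb7, Psma2, Psmc1, Psmd1, Psmd6 and Psmd14, and the 4 were Psmb8, Psmb9, Psmd4 and Psmd8. With TMM scaling the genes that rose were 5 of 6 ATPases, 5 of 14 Psmd genes, 4 of 7 of Psmb1 to Psmb7, 3 of 7 Psma genes and Psme3. The genes that fell were Psmb8, Psmb9 and Psmd4.

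Of the catalytic subunits, Psmb6 and Psmb7 rose and Psmb8 and Psmb9 fell under both scalings. Psmb6 held 105 to 171 CPM in the high range of the 6 libraries and 47.4 to 110.2 in the low range, was higher in the high range in 6 of 6, and rose by a log2 fold change of 1.33 ± 0.19 (FDR 3.8e-05, edgeR). Psmb7 held 42.7 to 95.4 against 32.0 to 48.8, was also higher in 6 of 6 libraries, and rose by 1.01 ± 0.19 (FDR 0.00046, edgeR). In blood of run 2, where the high range was 24 cells, Psmb7 held 4 UMIs, at 42.7 CPM against 42.1 in the low range. Psmb8 held 85.3 to 166 in the high range against 177 to 328 in the low range, with no overlap, and fell by 0.78 ± 0.15 (FDR 0.00042, edgeR). Psmb9 held 82.2 to 110.4 against 124 to 241, again with no overlap, and fell by 0.59 ± 0.14 (FDR 0.0025, edgeR). Psmb5 had 0.03 (FDR 0.91, edgeR) and Psmb10 -0.10 (FDR 0.75, edgeR), and neither passed the test. In CPM Psmb5 and Psmb10 were each higher in the high range in 1 of 6 libraries, and with library totals their estimates were -0.33 and -0.44 (FDR 0.17 and 0.16, edgeR).

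Of the regulatory particle, Psmd14 again changed most, by 1.49 ± 0.30 (FDR 0.00085, edgeR). Its level in the high and low range was 50.7 and 47.2 CPM in bone marrow of run 1 and 59.7 and 29.4 in bone marrow of run 2. It was 35.1 and 15.1 in spleen of run 1 and 66.3 and 19.7 in spleen of run 2, and 23.2 and 6.19 in blood of run 1 and 64 and 9.32 in blood of run 2. The high range was above the low range in every library, least so in bone marrow of run 1. Counts were low in places, with 7 and 6 UMIs (high and low range) in blood of run 1. They were 6 and 31 in blood of run 2 and 67 and 9 in spleen of run 1. Psmd6 rose by 1.08 and Psmc1 by 1.01, and both were higher in CPM in the high range in 6 of 6 libraries. Psmd1 rose by 1.45, the nuclear activator Psme3 by 0.92, Psma2 by 0.86, Psmd2 by 0.82 and the lid subunit Psmd12 by 0.81, and these were each higher in 5 of 6. The exception was spleen of run 1 for Psmd1 (5.76 CPM in the high range, 11.7 in the low), bone marrow of run 1 for Psme3, blood of run 2 for Psmd2, and blood of run 1 for Psma2 and Psmd12. The FDR of these 7 genes was 0.00011 to 0.012 in edgeR. Some of the counts behind these levels were small. In the high range of blood of run 2 Psmd1 held 1 UMI, Psme3 and Psmd2 2 each, Psmd6 3, Psmc1 and Psmd12 4 each and Psma2 20. In blood of run 1 Psmd1 held 7 UMIs in the high range and 6 in the low range. The ubiquitin receptor Psmd4 fell by 0.44 (FDR 0.023, edgeR) and held 66.3 to 78.8 in the high range against 91.8 to 156 in the low range. The interferon-inducible activators had 0.03 for Psme1 (FDR 0.93, edgeR) and 0.17 for Psme2 (FDR 0.42, edgeR). Psme2b had 0.08 (FDR 0.82, edgeR), and Psme4 had -0.51 (FDR 0.24, edgeR). With library totals Psme3 had 0.58 and was not called, and the estimates of Psme1, Psme2 and Psme2b were below 0.

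**Figure D2:**
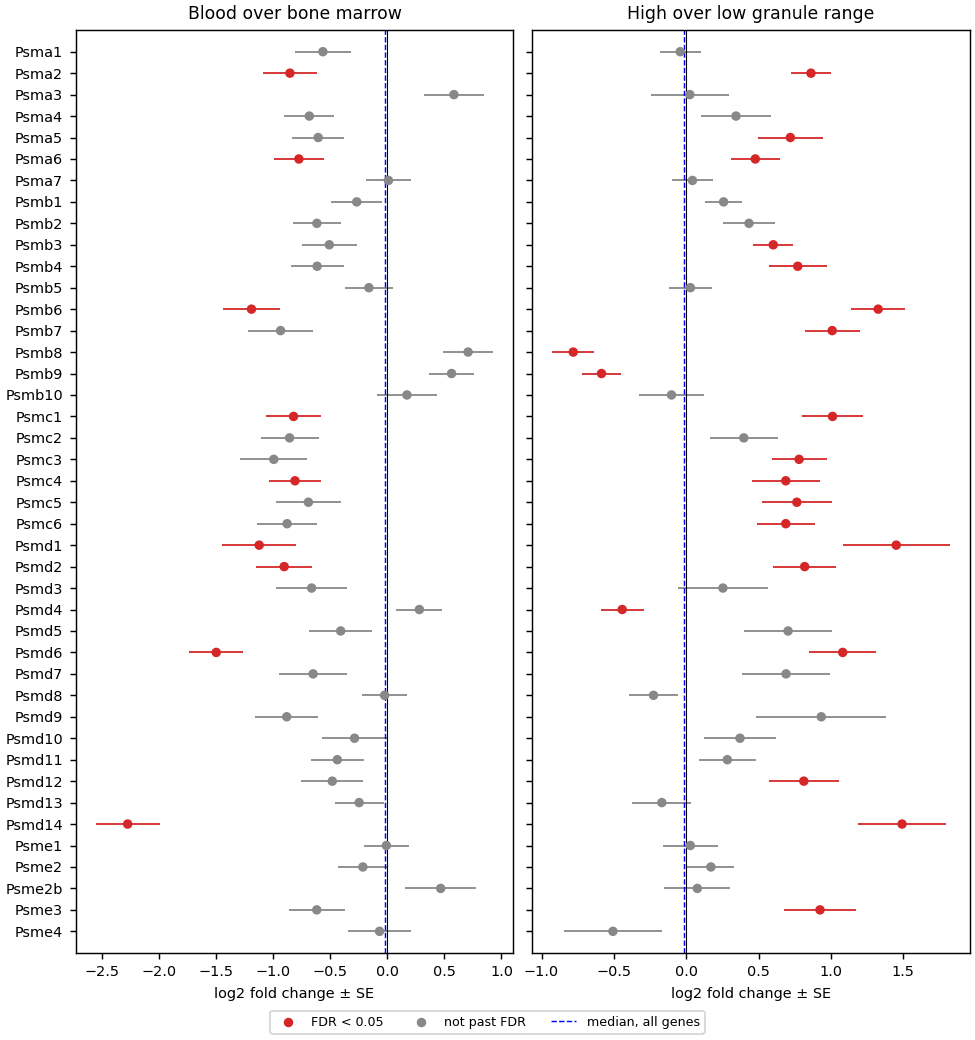
Log2 fold change with its standard error (edgeR) of each of the 42 members, for blood over bone marrow (left, 6 healthy libraries) and for the high over the low granule range (right, within the 6 healthy libraries). Red marks members at an FDR under 0.05 and the dashed line is the median of all genes tested, and most members lie left of it in blood (9 called lower) and right of it in the high granule range (18 called higher with TMM scaling, 7 with library totals), with Psmb8 and Psmb9 on the other side.

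Genes that work with the proteasome were counted in the same way, against the 21.3% of all genes called higher and the 25.2% called lower. Of 16 tested genes of assembly and regulation, 4 rose (25%, close to all genes), among them Pomp, the chaperone of core assembly (0.61), Akirin2, needed to import proteasomes into the nucleus (0.63), and the unfoldase Vcp (0.66). With library totals 0 of the 16 rose and 4 fell (12.6% and 36.3% of all genes). Ngly1, a deglycosylase, fell by 1.65. Of the 5 ubiquitin genes, 3 fell (4 with library totals), among them Ubb (-0.87) and Rps27a (-0.44), the latter with the difference between runs given above. Of 11 tested class I genes, 7 fell, led by H2-D1 (-1.89) and followed by Irf1 (-1.78) and Tap1 (-1.36). The high range held 234 to 1783 CPM of cell cycle markers and the low range 6.19 to 278, and in cells without a UMI of such a marker 14 members rose and 3 fell (19.2% and 22.2% of all genes). Markers of other cell types held 928 to 1442 CPM in the high range and 487 to 1542 in the low range. They were higher in the high range in 4 of 6 libraries, with 1442 against 487 in spleen of run 1, 1136 against 513 in blood of run 1, 928 against 590 in blood of run 2 and 1214 against 1099 in bone marrow of run 2, and their part in these calls was not tested.

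The share of the immunoproteasome genes among the catalytic subunits summarises this within each library. It was 37.5% to 51.4% in the high range and 61.6% to 76.1% in the low range, and every library showed the lower share in the high range. In bone marrow it was 45.8% and 39.5% in the high range of runs 1 and 2 and 61.6% in the low range of both. In blood it was 46.6% and 37.5% in the high range and 76.1% and 69.6% in the low range.

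The third question was how these genes followed the interferon state of neutrophils. Cells were split at 1% of UMIs from 14 interferon-stimulated genes, none of them a proteasome gene, and 822 of 17607 cells lay between 0.8% and 1.2%. The high range comprised 1289 cells, among them 18.4% and 7.90% of cells in blood, 13.1% and 7.51% in spleen and 12.2% in K/BxN joint. In bone marrow they made up 2.65% in run 1 and 1.26% in run 2. The other 4 inflamed conditions held 1.05% to 2.33%. The 6 healthy libraries, K/BxN blood and K/BxN joint had at least 10 cells in both ranges and entered the test, and the last 2 came from the same library.

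In the high range 3 of 40 tested members rose and 1 fell (edgeR with the library or condition as a block, 5115 genes tested, of which 3.11% were called higher and 3.15% lower, 6.26% in all). The genes that rose were Psmb8, Psmb9 and Psme2b, and Psmc5 fell. The median log2 fold change was -0.21 over the members and -0.11 over all genes. With library totals alone the medians were 0.01 and 0.09, and 5 members rose and 0 fell (4.65% and 1.11% of all genes): Psmb8, Psmb9, Psme2b and also Psme1 and Psme2.

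Psmb8 was higher in the high range in 8 of 8 libraries or conditions. In the low and high range it held 217 and 514 CPM in blood of run 1 and 268 and 475 in blood of run 2. It held 159 and 451 in spleen of run 1, 269 and 523 in spleen of run 2, 149 and 386 in bone marrow of run 1 and 120 and 420 in bone marrow of run 2. In K/BxN blood it held 153 and 283, and in K/BxN joint 106 and 553. No high-range value lay below any low-range value, and the log2 fold change was 1.14 ± 0.16 (FDR 9.1e-06, edgeR).

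Psmb9 also rose in 8 of 8, from 67.6 to 169 in the low range to 123 to 367 in the high range, and its log2 fold change was 0.86 ± 0.17 (FDR 0.0014, edgeR). The gap was small in bone marrow of run 1, where Psmb9 held 110 in the low and 123 in the high range. Psmb10 did not pass the test, with 0.47 ± 0.33 (FDR 0.52, edgeR), was higher in 4 of 8, and was at 0 UMIs in the high range of bone marrow of run 2. The constitutive subunits had estimates below 0 without passing: Psmb6 had -0.67 (FDR 0.0501, edgeR), Psmb7 -0.59 (FDR 0.22, edgeR) and Psmb5 -0.23 (FDR 0.55, edgeR).

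**Figure D3:**
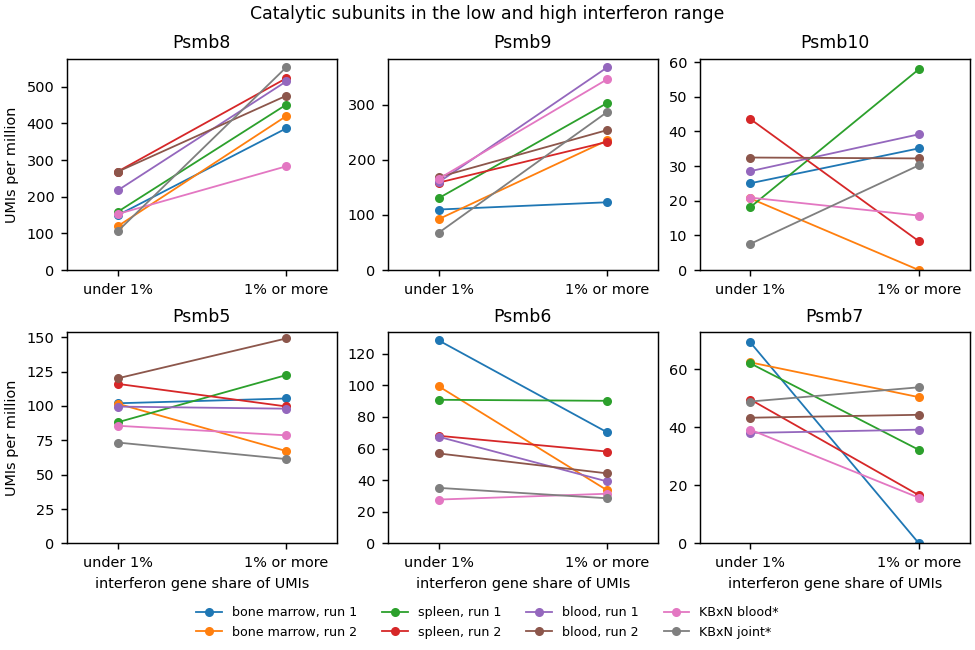
Levels of the 6 catalytic subunits (CPM) in cells below and at or above 1% of UMIs from 14 interferon genes, with 1 line for each of the 6 healthy libraries and 2 conditions of the inflammation library (marked by an asterisk). Psmb8 and Psmb9 are higher on the right in 8 of 8 lines, Psmb10 in 4 of 8, Psmb5 in 3 of 8, Psmb6 in 1 of 8 and Psmb7 in 3 of 8.

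The activators Psme1 and Psme2 were each higher in the high range in 8 of 8 and passed the test with library totals but not with TMM scaling. Psme1 had 75.2 to 135 CPM in the low and 100.7 to 241 in the high range, with a log2 fold change of 0.54 ± 0.18 (FDR 0.079, edgeR; 0.0082 with library totals). Psme2 had 46.6 to 147 and 78.6 to 249, with 0.48 ± 0.20 (FDR 0.18, edgeR; 0.031 with library totals). Psme2b rose by 0.85 (FDR 0.030, edgeR) and was called in 8 of 17 alternative settings, and its reads could be shared with Psme2 or with the same-strand genes that span it. Psmc5 had -1.30 (FDR 0.040, edgeR). It was at 0 UMIs in the high range of 4 of the 8 libraries or conditions and held 3 to 7 UMIs in the others, and it was called in 4 of 15 alternatives. Psme3 had -0.20 and Psme4 -0.05 (FDR 0.84 and 0.97, edgeR), with the opposite sign under library totals.

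Of the related genes, 7 of 11 tested class I genes rose, where 3.11% of all genes did, with Tap1 at 1.34. Pomp fell by 0.57 (FDR 0.047, edgeR; 0.35 with library totals), and the 5 ubiquitin genes did not pass the test. Irf1 and the class I genes are themselves known interferon targets. Cell cycle markers summed to 0 to 19.3 CPM in the high and 3.04 to 657 CPM in the low range. Markers of other cell types held 515 to 1546 CPM in the high and 312 to 1427 in the low range, and were higher in the high range in 4 of 8, with 1368 against 460 in K/BxN blood, 731 against 312 in K/BxN joint, 709 against 600 in blood of run 2 and 1546 against 1456 in bone marrow of run 1. In spleen of run 1 they held 515 against 1267. The calls for Psmb8 and Psmb9 held when only cells of the low granule range were used, where 5 of 31 members rose (3.57% of all genes). The number of members called was 2 by DESeq2 (4.65% of all genes), and 2 without bone marrow of run 2, spleen of run 2, K/BxN blood or K/BxN joint (4.21% to 7.92% of all genes). Without the library or condition as a block 1 member was called (1.19% of all genes), and in cells without a UMI of any other cell type's marker 2 of 28 were called (4.45% of all genes).

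The share of the immunoproteasome genes was higher in the high interferon range in 8 of 8. In bone marrow it was 75.6% and 81.2% in the high range against 48.7% and 46.9% in the low range (runs 1 and 2). These high ranges were 32 and 43 cells, with exact binomial 95% intervals of 59.7 to 87.6 and 67.4 to 91.1. In K/BxN joint it was 85.8% (exact binomial 95% interval 83.7 to 87.7) against 53.5% (51.7 to 55.2).

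The last question was how inflamed sites compared with blood. Each condition was 1 pool of mice in 1 library, so there was no replicate check and no test, and intervals cover counting error only. The 4 comparisons share the healthy blood of that library. Inflamed cells were not selected by their S100 share, and 59 to 237 per condition lay below 3%. The 42 genes held 0.236% of UMIs in healthy blood of the inflammation library (95% interval 0.227 to 0.245), 0.210% in K/BxN blood, 0.179% in K/BxN joint, 0.151% in IL-1β lung and 0.144% in IL-1β peritoneum (0.136 to 0.151). Without granule and S100 genes in the total the difference of K/BxN blood from healthy blood turned from -0.0261 to 0.00612 percentage points, and the other 3 conditions stayed below healthy blood. Most genes were lower in CPM in the inflamed conditions: the median fold over all genes with at least 20 UMIs in the pair was 0.757 in K/BxN blood, 0.721 in K/BxN joint, 0.509 in IL-1β lung and 0.480 in IL-1β peritoneum. TMM scaling moved all folds up by 0.46, 0.56, 0.90 and 0.91 on the log2 scale, and TMM folds are given beside those in CPM for the named members whose call or direction differs between the scalings.

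In CPM, 0 members were at least 1.5-fold higher and 10 of 42 at least 1.5-fold lower in K/BxN blood (3.73% and 33.5% of all genes). The counts were 1 and 14 of 42 in K/BxN joint (16.5% and 44.6% of all genes), 2 and 23 of 39 in IL-1β lung (15% and 62.4%) and 2 and 24 of 40 in IL-1β peritoneum (13.9% and 64%). With TMM scaling they became 5 higher and 1 lower in K/BxN blood (12.4% and 9.86% of all genes). They were 7 and 3 in K/BxN joint (29.7% and 20.8% of all genes). In IL-1β lung they were 12 and 6 (29.9% and 33.6%), and in IL-1β peritoneum 13 and 16 (29.1% and 35.7%). The median fold of the members in CPM was 0.838, 0.761, 0.578 and 0.460 in the same order, close to that of all genes.

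In IL-1β lung the immunoproteasome genes lay below that background. Psmb9 held 26.5 CPM against 147 in healthy blood, a fold of 0.181 (0.122 to 0.261). Psmb8 held 40.1 against 149 (fold 0.269, 0.193 to 0.368) and Psmb10 9.08 against 28.4 (fold 0.319, 0.150 to 0.637). They were at least 1.5-fold lower under both scalings, with TMM folds of 0.337, 0.502 and 0.596. The summed level of 7 B cell markers was 209 CPM in healthy blood of the library, 124 in K/BxN blood, 51.4 in K/BxN joint, 22.7 in IL-1β lung and 28.6 in IL-1β peritoneum, with 5, 4, 2, 3 and 5 of the 7 at 0. Cd79a, Cd79b and Ighd were among the markers at 0 in healthy blood and in IL-1β lung. In cells without a UMI of any other cell type's marker the folds of Psmb9 and Psmb8 in IL-1β lung were 0.188 and 0.279. Psmb6 and Psmb7 had folds of 1.12 (0.705 to 1.79) and 1.08 (0.783 to 1.5), and Psmb5 of 0.557. With TMM scaling these were 2.09, 2.02 and 1.04, so Psmb6 and Psmb7 were more than 1.5-fold higher with that scaling. The immunoproteasome share was 35.0% (29.4 to 40.8) in IL-1β lung and 66.6% (62.5 to 70.5) in healthy blood of the library. In IL-1β peritoneum it was 46.6% (40.2 to 53.2), with Psmb8 at 58.3 (fold 0.391), Psmb9 at 49.9 (fold 0.340) and Psmb10 at 9.55 (fold 0.336). With TMM scaling the folds of Psmb9 and Psmb10 were 0.639 and 0.631 there, and that of Psmb8 was 0.735. The folds of Psmb5, Psmb6 and Psmb7 there were 0.734, 0.818 and 0.938 in CPM and 1.38, 1.54 and 1.76 with TMM scaling.

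The immunoproteasome share in K/BxN blood and joint was 69.5% (67.0 to 72.0) and 62.6% (61.1 to 64.0). In the joint the 3 genes differed: Psmb8 held 157 CPM (fold 1.05, TMM fold 1.55), Psmb9 92.9 (fold 0.633, TMM fold 0.931) and Psmb10 10.2 (fold 0.359, TMM fold 0.527). The folds of Psmb5, Psmb6 and Psmb7 in the joint were 1.04, 1.11 and 0.795 in CPM and 1.53, 1.63 and 1.17 with TMM scaling. Without the joint cells of the high interferon range the share was 53.5%, as given above. In K/BxN blood the folds of Psmb8, Psmb9 and Psmb10 were 1.04, 1.16 and 0.731 (1.44, 1.59 and 1.01 with TMM scaling), and those of Psmb5, Psmb6 and Psmb7 were 1.23, 0.895 and 0.621 (1.7, 1.23 and 0.854 with TMM scaling).

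Some members were higher at inflamed sites. Psmd14 held 8.00 CPM in healthy blood (9 UMIs), 8.54 in K/BxN blood, 17.7 in K/BxN joint, 40.9 in IL-1β lung and 22.3 in IL-1β peritoneum. The folds were 2.21 (1.14 to 4.91) in K/BxN joint, 5.11 (2.5 to 11.8) in IL-1β lung and 2.78 (1.22 to 6.91) in IL-1β peritoneum, and TMM scaling kept the direction with 3.25, 9.54 and 5.24. Psme2, the activator subunit, held 225 in IL-1β peritoneum against 73.8 in healthy blood, a fold of 3.05 (2.35 to 3.98), and 84.8 in IL-1β lung (fold 1.15, TMM fold 2.15). Its partner Psme1 had folds of 0.860 and 0.640 in CPM (1.62 and 1.2 with TMM scaling). In K/BxN blood and joint Psme2 had 0.855 and 0.837 and Psme1 0.975 and 0.804 in CPM, and with TMM scaling, which turned the direction, 1.18 and 1.23 and 1.34 and 1.18, none past 1.5-fold. Psme4 had 1.02 in K/BxN blood, 0.758 in K/BxN joint (1.11 with TMM scaling), 1.27 in IL-1β lung (2.37 with TMM scaling) and 0.477 in IL-1β peritoneum (0.898 with TMM scaling). Psmd10, an assembly chaperone of the regulatory particle, had a fold of 1.58 (0.980 to 2.60) in IL-1β lung.

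**Figure D4:**
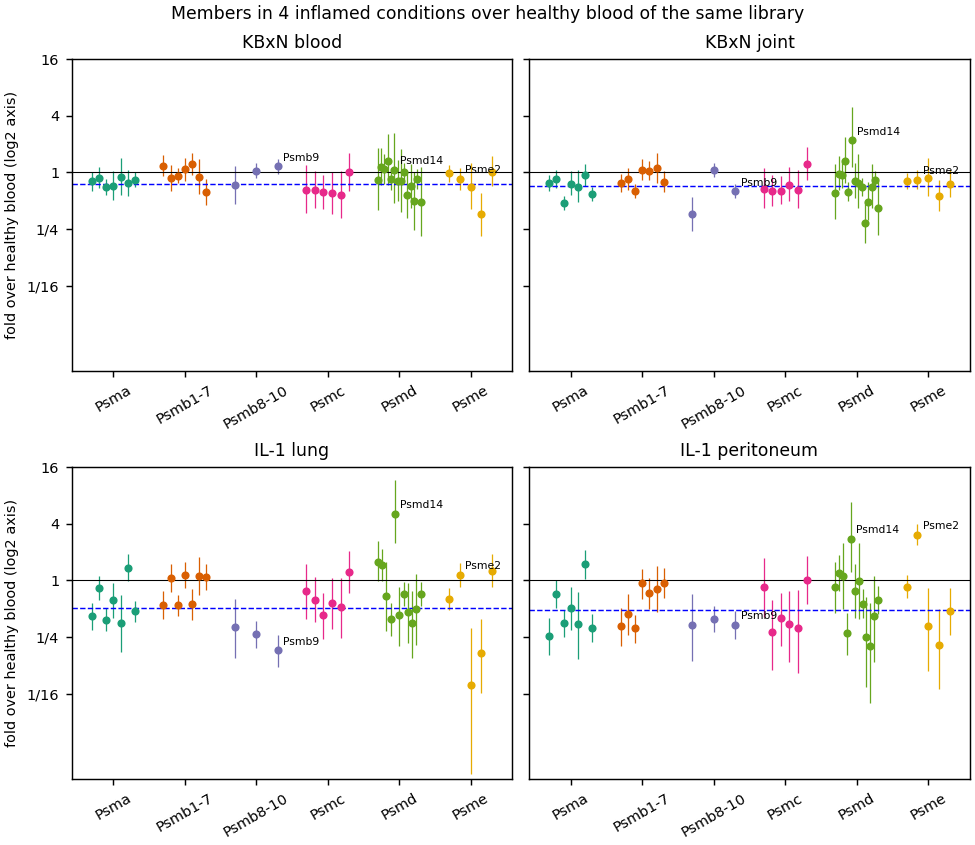
Fold of each member with at least 20 UMIs in the pair, in CPM over healthy blood of the same library, by gene family in the 4 inflamed conditions (log2 axis). Points are single genes, bars are exact 95% intervals for counting error only, the dashed blue line is the median fold of all genes (0.757, 0.721, 0.509 and 0.480), and Psmd14 in IL-1β lung (5.11) and Psme2 in IL-1β peritoneum (3.05) stand above the rest.

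At the other end, Psme3 was at least 1.5-fold lower in CPM in all 4 conditions, with folds of 0.358 (0.212 to 0.60) in K/BxN blood, 0.559 in K/BxN joint, 0.170 in IL-1β lung and 0.205 in IL-1β peritoneum. With TMM scaling these were 0.493, 0.822, 0.318 and 0.385. Psme2b was lowest in IL-1β lung, with 2 UMIs against 22 (fold 0.0774, 0.00882 to 0.315), and had 0.702 in K/BxN blood, 0.874 in K/BxN joint (1.29 with TMM scaling) and 0.325 in IL-1β peritoneum. The lowest in K/BxN joint was Psmd5, an assembly chaperone (0.287), followed by Psmb10, the assembly chaperone Psmd9 (0.419), Psma3 (0.471) and Psmd6 (0.487). With TMM scaling Psma3 and Psmd6 were at 0.693 and 0.716 and no longer past 1.5-fold. In IL-1β lung Psmd6 was at 0.355. In IL-1β peritoneum the lowest were Psmd6 (0.199), Psme3, Psmd5 (0.249), Psma1 (0.259) and Psmd13 (0.278), and in K/BxN blood Psme3 was followed by Psmd9 (0.487), Psmd7 (0.491), Psmd5 (0.574) and Psmc5 (0.581). With TMM scaling the last 4 genes were at 0.671, 0.677, 0.791 and 0.80, none past 1.5-fold.

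Among the related genes Nfe2l2, a transcription factor of the oxidative stress response, had folds of 2.22 in K/BxN joint, 2.00 in IL-1β lung and 3.99 in IL-1β peritoneum in CPM. In IL-1β lung Pomp had 2.25 (1.77 to 2.88) and Ddi2, the protease that activates Nfe2l1, 1.92 (1.25 to 3.00). In CPM, of 16 genes of assembly and regulation with enough UMIs in IL-1β lung, 3 were at least 1.5-fold higher and 12 lower, where 15% and 62.4% of all genes were. In K/BxN blood 0 of 17 were higher and 7 lower, where 3.73% and 33.5% of all genes were. Granule genes, which went with Psmd14 and Psmb6 in healthy libraries, held 0.0838% of UMIs in healthy blood of the library, 0.226% in K/BxN blood, 0.0860% in K/BxN joint, 0.437% in IL-1β lung and 1.19% in IL-1β peritoneum. Their part, and that of the site, the route and the time of treatment, in these folds was not tested.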

How the data were processed

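UMI counts per gene and cell were deposited by the authors as 1 table per healthy library and 1 for the inflammation library, made with Cell Ranger on mm10 per the labels and the study's methods. These are raw counts, and the authors had added rows of the same symbol, removed hashtag doublets and negatives, and labelled inflamed cells by ImmGen reference. Selected cells held 942688 to 10293966 UMIs per library or condition. Their counts were summed, since cells are not replicates. The members and gene lists were chosen with earlier results of these data known.

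Sums were tested with edgeR 4.0.16 (filterByExpr, TMM, quasi-likelihood, FDR 0.05) in R 4.3.3, with the run, library or condition as a block. Pairing by run follows from the shared mice of a run, and the deviations of run 1 libraries from their tissue means correlated at 0.597, 0.550 and 0.631 over 7809 genes. Each library pooled mice, so n counts pools. The 6 catalytic subunits and 5 activators were always named, then up to 10 called members per test by size, up to 5 per direction in each inflamed condition, the most and least abundant member of a family, and up to 4 called genes per related list. Doublets among healthy cells were not called. Strand use in counting is not given in the sources used here, and 18 members overlap a gene on the other strand. Inflamed folds carry exact 95% intervals, which cover counting error only. Psmd8 and Psmb1 were named after their values were seen. Alternatives used DESeq2 1.42.0, other scalings (among them library totals without TMM factors), filters and cell selections. The fits were tested on simulated data. Some genes of the related lists are counted but not reported here by name.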

Additional observations from a re-analysis of the deposited data

Results flagged for a closer look

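Healthy cells below 3% of UMIs from S100a8 and S100a9, which were left out of every main comparison, also held proteasome UMIs. In run 1 the 42 genes held 0.644% of UMIs in 282 such cells from blood, 0.864% in 65 from bone marrow and 0.940% in 84 from spleen. In run 2 they held 0.0944% in 981 such cells from blood, 0.748% in 397 from bone marrow and 0.623% in 2343 from spleen. These values lay above those of the selected cells of the same library, except in blood of run 2, where erythroid genes held 810939 CPM (UMIs per 1000000). Erythroid genes also held 188451 CPM in these cells of blood and 225347 in those of bone marrow of run 1, where the values lay above those of the selected cells. The share of Psmb8, Psmb9 and Psmb10 among the 6 catalytic subunits in these cells was 69.1%, 58.3% and 62.7% in blood, bone marrow and spleen of run 1 and 63.8%, 55.2% and 67.0% in run 2. B cell genes held 448 to 9316 CPM there, and the part of the erythroid and B cell genes in these values was not tested.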

How the results depend on the processing

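Of the tests, the high against low granule range gave 21 members called. Under the alternatives other than library totals in place of TMM factors it gave 16 to 23, where 24.4% to 46.7% of all genes were called. With library totals it gave 11 (48.9% of all genes). The replicate block (21 without it) changed nothing in the count of 21. The pairing mattered elsewhere. Without the replicate block, blood against bone marrow called 1 member in place of 9, and the interferon range 1 in place of 4. For blood against bone marrow the count was 2 with library totals (18.7% of all genes called in either direction) and 4 with DESeq2 (15.1%). It was 3 without a low-count filter (11.2%), 16 among genes listed in all 6 healthy files (30.9%) and 4 with a cell quality filter (18.5%). Without cells holding other markers it was 5 (17.3%), in the low granule range 3 (10.6%) and without cells holding cell cycle markers 3 (13.4%). Spleen against bone marrow gave 1 in the low granule range and 0 to 3 with 1 library left out, and spleen against blood 0 to 1. The interferon range gave 2 with DESeq2, 2 without cells holding other markers, and 2 to 4 with 1 library or condition left out. Where a left-out library leaves 1 in a tissue, it is assumed to vary like the others.

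Members past 1.5-fold in K/BxN blood numbered 10 (3.73% of all genes higher and 33.5% lower), against 6 with TMM scaling (12.4% and 9.86%). There were 2 with at least 100 UMIs and 5 without cells holding other markers. In IL-1β lung they numbered 25 (15% and 62.4% of all genes), against 10 and 13 under the last 2 choices. In IL-1β peritoneum they numbered 26 (13.9% and 64%), against 11 and 13. The share of all genes under the last 2 choices is not given, so these counts are no result about the members. The difference in the share of all UMIs (percentage points) between blood and bone marrow was -0.00605, and it was -0.154 without granule and S100 genes in the total, 0.0309 as a mean over cells and 0.0376 without cells holding other markers. That of spleen against bone marrow was 0.00532, and -0.0807 without granule and S100 genes. Against healthy blood of the library, K/BxN blood moved from -0.0261 to 0.00612 without granule and S100 genes and to -0.0151 without cells holding other markers. K/BxN joint moved from -0.0564 to -0.0707 at 10% S100 or more, -0.0676 without the high interferon range and -0.0368 as a mean over cells. IL-1β lung moved from -0.0853 to -0.0662 as a mean over cells and -0.0660 without cells holding other markers, and IL-1β peritoneum from -0.0922 to -0.0800 as a mean over cells. The immunoproteasome share of blood exceeded that of bone marrow by 21.5 points, and by 19.0 at 10% S100 or more, 19.8 with a cell quality filter, 19.4 without the high interferon range, 18.9 as a mean over cells and 16.4 without cells holding other markers. Within the low granule range the share was 76.1% and 69.6% in blood and 61.6% in bone marrow of both runs. The share in K/BxN joint lay at -4.04 points against healthy blood, at -12.0 without the high interferon range and at -8.90 without cells holding other markers. The fits with library totals, those on genes listed in all healthy files, the interferon contrast in cells under 1% granule share, the granule contrast in cells under 1% interferon share and the shares and inflamed values without the high interferon range were chosen after seeing the data. The cause of these shifts was not tested.

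The log2 fold changes of Psmb5 and Psmb10, which passed no test, changed sign in places. With 1 library left out, Psmb5 ranged from -0.399 to 0.0521 in blood over bone marrow and from -0.0126 to 0.114 in the granule range, and it was -0.0847 in the granule range without a low-count filter. With library totals it was 0.114 and -0.331. In IL-1β lung its TMM fold was 1.04. With 1 library left out, Psmb10 ranged from -0.111 to 0.420 in blood over bone marrow, from -0.176 to 0.136 in the granule range and from -0.0601 to 0.679 in the interferon range. It was -0.0508 in blood over bone marrow at 10% S100 or more and -0.126 in the low granule range alone, 0.421 in the granule range without cells holding cell cycle markers, and -0.0382 in the interferon range in healthy libraries alone. With 2 libraries per tissue and members as low as 2 UMIs in a condition, small differences were not detectable at this depth.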
